A study of Mus musculus with 6 samples.

Results

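Forkhead transcription factors were followed in the urogenital ridge of mouse embryos with and without Wt1, the Wilms tumour gene, whose product is a transcription factor of the zinc finger type. The set held every probe whose single gene symbol in the platform annotation is Fox followed by 1 letter and digits, with Foxl2 and the Foxred genes left out by the rule. It came to 34 of the 13769 genes named on the array, read by 37 of its 20289 probes, and 3 genes (Foxf1, Foxn2 and Foxn3) had 2 probes each. Wild-type embryos of the Mf1 strain were compared with Mf1 embryos homozygous for a deletion of Wt1, at E11.5 with 11 to 12 tail somites, just before the gonad becomes testis or ovary. There were 3 single-colour arrays per genotype, each described as 5 pooled embryos (4 females, 1 male). Whether the 3 arrays hold RNA from different pools is not stated, and the p-values below thus cover array-to-array spread that may be no more than technical. The labels name no Cre driver or transgene.

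Forkhead proteins bind DNA through a winged-helix domain that they share, and they are grouped into lettered classes by the sequence of that domain. Many act early in the embryo. FOXA proteins open chromatin in endoderm and the floor plate, FOXC and FOXF proteins pattern mesoderm and mesenchyme, and FOXD1 marks the stromal progenitors of the kidney. FOXO proteins are held out of the nucleus when insulin or growth factor signals activate AKT, and FOXM1 drives genes of mitosis. The ridge contains the mesonephros, the early gonad and its coelomic epithelium, beside mesenchyme, vessels and incoming neural crest cells.

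Promoter sequences of Foxd1 and Foxd3, members of class D whose signals were called in opposite directions, and of Foxo1, whose decrease was among the most stable, are shown first. Each runs from 250 bases before to 50 bases after the annotated start (RefSeq, GRCm38.p6), 5′ to 3′ on the gene's strand. Foxo1 was added after its values were seen. Capitals mark GNGGGNGNG on either strand, a GC-rich pattern, with overlapping matches counted separately. How far this pattern covers the sites of the EGR or WT1 zinc fingers was not tested. Foxd1 lies at chr13:98353995-98354294 on the plus strand, Foxd3 at chr4:99656049-99656348 on the plus strand, and Foxo1 at chr3:52268087-52268386 on the plus strand.
Foxd1: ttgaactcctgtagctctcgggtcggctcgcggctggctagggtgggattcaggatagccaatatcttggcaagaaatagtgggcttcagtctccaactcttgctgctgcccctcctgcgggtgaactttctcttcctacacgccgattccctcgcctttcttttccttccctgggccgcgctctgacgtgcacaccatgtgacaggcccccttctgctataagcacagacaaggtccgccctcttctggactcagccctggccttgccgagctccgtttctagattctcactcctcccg
Foxd3: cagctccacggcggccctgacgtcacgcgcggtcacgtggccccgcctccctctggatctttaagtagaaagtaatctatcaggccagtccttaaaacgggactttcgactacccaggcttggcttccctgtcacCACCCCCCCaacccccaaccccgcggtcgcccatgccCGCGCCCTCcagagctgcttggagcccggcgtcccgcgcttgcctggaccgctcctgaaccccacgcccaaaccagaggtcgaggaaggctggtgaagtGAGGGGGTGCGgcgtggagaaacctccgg
Foxo1: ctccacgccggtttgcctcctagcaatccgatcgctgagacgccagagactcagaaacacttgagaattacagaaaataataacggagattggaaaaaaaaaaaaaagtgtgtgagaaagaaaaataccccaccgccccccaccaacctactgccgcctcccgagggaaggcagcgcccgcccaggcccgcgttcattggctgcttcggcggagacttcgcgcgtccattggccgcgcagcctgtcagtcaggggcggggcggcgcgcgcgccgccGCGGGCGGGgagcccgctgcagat
The window of Foxd3 holds 4 matches, that of Foxo1 holds 1 and that of Foxd1 holds 0. A promoter was listed for 23 of the 34 forkhead genes, 28 windows in all, and 19 of these (67.9%) hold the pattern, against 43.8% of the 32851 promoter windows of the genome. The forkhead windows had a median GC content of 62.8%, against 52.7% over all windows. The forkhead core TGTTTAC, read on both strands, was in 1 of the 28 windows, that of Foxa1, or 3.57% against 3.65% of all windows. A match is a run of letters and not a measured binding site.

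Array values are the deposited intensities, linear numbers scaled so that the median probe of every array lies between 0.956 and 0.966. Wt1 itself fell on both of its probes, with log2 changes of -1.52 ± 0.08 and -1.74 ± 0.37 (SE, limma adjusted p = 1.13e-07 and 0.00273). Its brighter probe still read 14.3, 15.7 and 14.2 in knockout, against 44.1, 43.6 and 39.1 in wild type. The source of this remaining signal was not tested. Markers of the labelled tissue were present in wild type. Over 8 gonadal primordium markers the wild-type arrays summed to 48.9 to 51.6 and the knockout arrays to a median of 11.4 with a lowest sum of 10.7, with 6 of 7 tested markers lower and none higher, and Amhr2 gave most of the wild-type sum (30.6 in wild type and 0.480 in knockout). Lhx9, a regulator of gonad formation, was 4.23 ± 0.218 in wild type and 1.12 ± 0.0531 in knockout (SD, n = 3 each), while Cbx2 was under the limit for dim probes on every wild-type array. Of 9 tested coelomic epithelium markers 2 rose and 4 fell, of 5 nephric duct and tubule markers 2 rose and 1 fell, and of 7 germ cell markers 4 fell. The coelomic epithelium markers that fell include Wt1 itself, the deleted gene. The 4 erythroid markers did not pass in the main comparison, with limma adjusted p of 0.109 to 0.67. Under both quantile and cyclic loess normalization Hbb-bh1, Hbb-y and Hba-x were called lower, with log2 changes of -0.57 to -0.26. Hba-a1 was not called under either. Knockout array 1 stood somewhat apart from knockout arrays 2 and 3. Its median absolute difference from them was 0.212 and 0.191 on the log2 scale, against 0.131 between arrays 2 and 3. For Foxd1, Foxd3, Foxi1, Foxk2, Foxn1, Foxp1 and Snai2 the change is given with and without that array.

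Of the 37 forkhead probes, 24 (22 genes) were bright enough to test, with a mean log2 signal above an intensity of 0.217, the 25th percentile of probe means. In the knockout 5 of these rose and 4 fell at adjusted p under 0.05, and 15 did not pass (limma, Benjamini-Hochberg over 15062 probes). The share called, 37.5%, compares with 41.3% of all tested probes, so as a group the forkhead probes were called about as often as the array at large. Over all tested probes 24.1% were called higher and 17.2% lower, an excess of increases that depended on the scaling. Of all calls 58.3% were higher in the main comparison, 50.7% under quantile and 49.5% under cyclic loess normalization. The median log2 change was -0.05 for the 24 probes and 0.09 for all tested probes. Over all tested probes it was 0.03 under quantile and 0.024 under cyclic loess normalization. Of the 24, 4 were called with 1.5-fold or more, Foxd1, Foxo1 and Foxp2 lower and Foxn3 higher, where 15.5% of all tested probes met that limit. Wild-type and knockout arrays were fully separated at 11 of the 24 probes, 6 higher and 5 lower, against 52.8% of the probes of the array with 6 values. Without knockout array 1, 6 forkhead probes were called higher and 6 lower, and over the array 7317 probes were called in place of 6221.

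**Figure D1:**
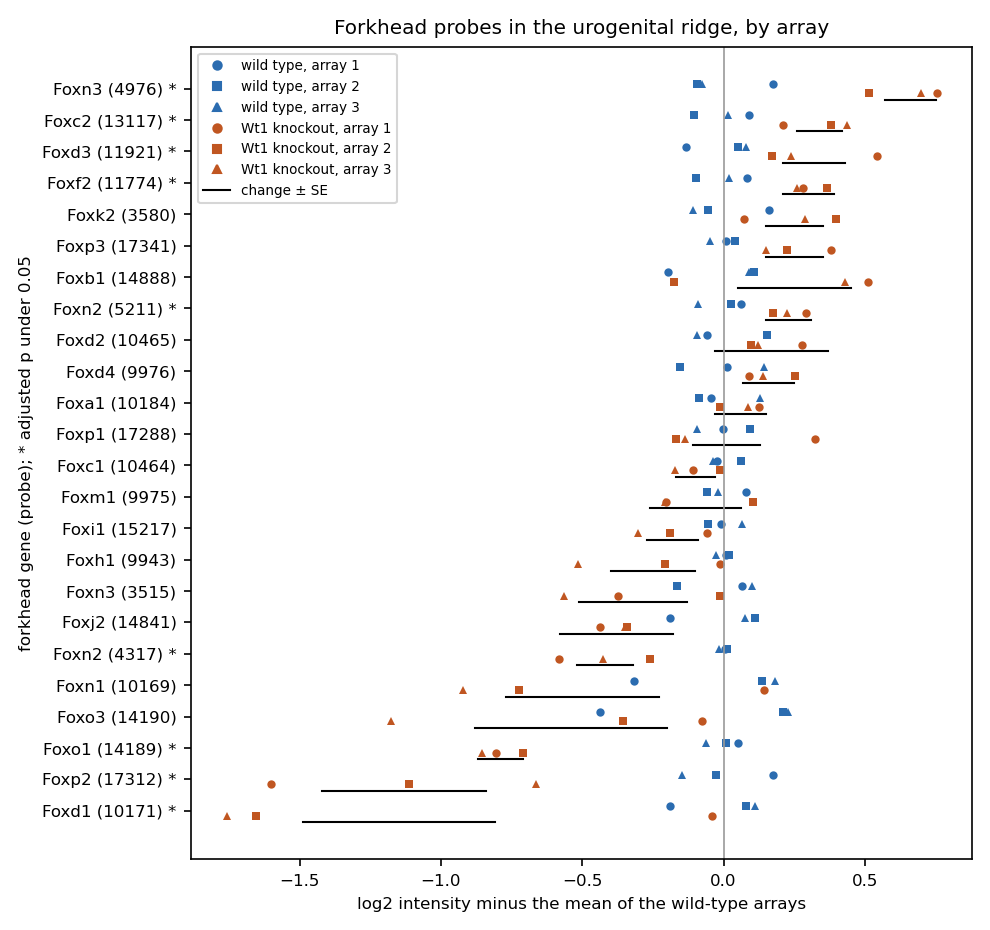
Log2 intensity of each tested forkhead probe on every array (horizontal axis) minus the mean of the wild-type arrays, 24 probes in order of their change (vertical axis), with wild type in blue, knockout in orange, one marker shape per array number, and a black bar for the change ± SE. The knockout arrays lie together to the left for Foxo1 and to the right for Foxn3 (probe 4976), whereas for Foxd1 knockout array 1 lies among the wild-type arrays.

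Foxd1, of the stromal progenitors, had the largest estimated change among the tested forkhead probes and the least even one across the knockout arrays. The wild-type arrays read 13.7, 16.5 and 16.9, and the knockout arrays 15.2, 4.97 and 4.62. Knockout array 1 thus lay within the wild-type range, while knockout arrays 2 and 3 lay far below it, so the genotypes overlapped. The log2 change was -1.15 ± 0.34 (SE, adjusted p = 0.0172, limma), or 2.22-fold lower. Without knockout array 1 it was -1.71 with adjusted p = 1.86e-10. The call ended without wild-type array 2 (adjusted p = 0.0567) or 3 (0.0760), without knockout array 2 (0.0653) or 3 (0.0652), with no intensity trend in the variance prior (0.101) and with a robust prior (0.179). Over the 15043 tested probes with values on all knockout arrays, the gap between knockout array 1 and the mean of the other knockout arrays was at least as large as that of Foxd1 (1.67 on the log2 scale) at 38 probes, or 80 when gaps of either sign were counted by size, and the central 95% of gaps ran from -0.84 to 0.90. Snai2, a transcription factor gene of neural crest and mesenchyme, had a similar array pattern, with knockout values of 14.4, 6.74 and 7.38 against 14.6, 15.4 and 15.2 in wild type (log2 change -0.75, adjusted p = 0.0143, and -1.09 with 1.94e-09 without knockout array 1). It was singled out after its values were seen.

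**Figure D2:**
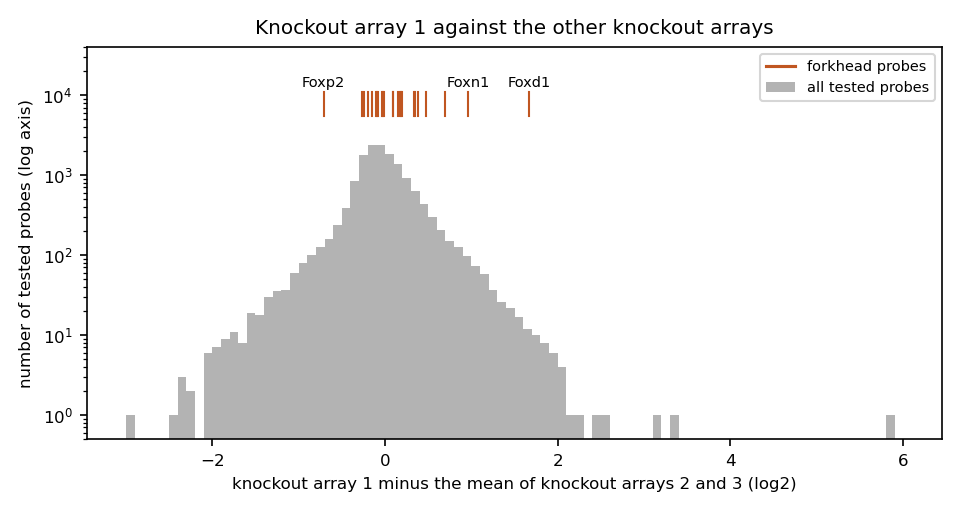
Number of tested probes (vertical log axis) by the log2 difference between knockout array 1 and the mean of knockout arrays 2 and 3 (horizontal axis), with the forkhead probes as orange ticks and all tested probes as grey bars. Foxd1, at 1.67, lies outside the central 95% of the gaps, and Foxn1, at 0.96, also lies beyond the upper limit of 0.90.

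The other mesodermal and mesenchymal forkhead genes had small changes, were not called or were too dim to test. Foxc2, needed for the aortic arch, somites and lymphatic vessels, read 54.5, 47.6 and 51.8 in wild type and 59.2, 66.7 and 69.3 in knockout. The genotypes did not overlap, and the log2 change was 0.34 ± 0.08 (adjusted p = 0.00622), or 1.27-fold higher. That call ended under quantile normalization (0.09, adjusted p = 0.338) and cyclic loess normalization (0.11, adjusted p = 0.259). Its paralog Foxc1, which acts with it in kidney and somite formation, read 17.1, 18.1 and 16.9 in wild type and 16.1, 17.2 and 15.4 in knockout. These ranges overlapped, and the log2 change of -0.10 ± 0.07 did not pass (adjusted p = 0.305), although it became -0.22 and passed under quantile (adjusted p = 0.0181) and cyclic loess normalization (0.0191). Which of the paralogs was called depended on the scaling.

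Foxf2, a gene of gut and craniofacial mesenchyme downstream of hedgehog signals, read 2.29, 2.02 and 2.19 in wild type and 2.63, 2.79 and 2.59 in knockout. All knockout values lay above all wild-type values, a log2 change of 0.30 ± 0.09 (adjusted p = 0.0162) that missed the threshold without wild-type array 2 (0.25, adjusted p = 0.0862). Foxf1, its relative in lateral plate and gut mesenchyme, was too dim to test on either probe, with values of 0.0924 to 0.252. Foxl1, another gut mesenchyme gene, was also too dim to test, with no value above 0.218. Foxd2, of class D, read 0.440, 0.510 and 0.429 in wild type and 0.556, 0.490 and 0.499 in knockout, with no call (0.17 ± 0.20, adjusted p = 0.539). In the RefSeq gene order Foxq1, Foxf2 and Foxc1 are neighbours on chromosome 13, and Foxc2 and Foxl1 on chromosome 8, with 1 protein-coding gene between Foxf1 and Foxc2. Within the chromosome 13 group Foxf2 alone was called, Foxc1 did not pass and Foxq1 was not tested. Within the chromosome 8 group Foxc2 was called and both of its neighbours were too dim to test.

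Genes of neural crest and neuroectoderm followed. Foxd3, which specifies neural crest and keeps its cells multipotent, read 3.89, 4.42 and 4.51 in wild type and 6.21, 4.80 and 5.03 in knockout. No knockout value fell inside the wild-type range, and the log2 change was 0.32 ± 0.11 (adjusted p = 0.0308), or 1.25-fold higher. The call ended without wild-type array 1 (adjusted p = 0.136), 2 (0.0641) or 3 (0.0527), and with no trend in the variance prior (0.0952). Without knockout array 1, the highest of the 6 arrays, the change was 0.20 (adjusted p = 0.0459). Of 7 neural crest markers 6 were on the array, and their sum was 28.5 to 29.5 over the wild-type arrays and 38.9 to 39.7 over the knockout arrays. Of 5 tested markers Sox10 (from 5.84 to 13.5) and Th (from 2.38 to 5.22) rose, and the other 3 did not pass (-0.22 to 0.10). The median of the list was 0.10, beside 0.09 for all tested probes. Hand2, at 0.140 to 0.293, stayed near the limit for dim probes. The part of these cells in the change of Foxd3 was not tested, and in such bulk tissue more cells of a type and more RNA per cell cannot be told apart. Foxb1, of the neural tube and hypothalamus, read 0.541, 0.668 and 0.661 in wild type and 0.884, 0.550 and 0.835 in knockout. Knockout array 2 lay inside the wild-type range, and the change of 0.25 ± 0.20 did not pass (adjusted p = 0.340, or 0.0499 without that array). Foxd4, of early neuroectoderm, was likewise not called (0.16 ± 0.09, adjusted p = 0.193), and Foxb2, of the dorsal neural tube, was too dim to test.

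In the FOXO class 1 gene fell evenly over the knockout arrays. This gene, Foxo1, a target of AKT that is needed for embryonic vessels, read 4.22, 4.10 and 3.90 in wild type and 2.33, 2.49 and 2.25 in knockout. The groups were far apart relative to their spread, with means of 4.07 ± 0.161 and 2.35 ± 0.121 (SD, n = 3 each) and a log2 change of -0.79 ± 0.08 (limma adjusted p = 2.16e-05), or 1.73-fold lower. The call held in all 17 alternative settings, where the change ran from -0.83 to -0.73. Foxo3, best known from ovarian follicles and stress responses, read 0.329, 0.515 and 0.521 in wild type and 0.422, 0.348 and 0.197 in knockout. Its ranges overlapped, and the change of -0.54 ± 0.34 did not pass (adjusted p = 0.228). The X-linked Foxo4 was too dim to test, with wild-type values of 0.0555 to 0.235 and knockout values of 0.161 to 0.581. Over 6 endothelial markers the wild-type arrays summed to 63.2 to 66.1 and the knockout arrays to 65.1 to 66.4, while 3 of 5 tested markers fell and 1 rose. Of 7 tested gonadal primordium markers 6 were lower in the knockout, where 17.2% of all tested probes were called lower. The part of vessel or gonadal cells in the Foxo1 value was not tested.

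Among 24 tested genes of insulin receptor, PI3K, AKT and FOXO signalling, 2 rose, 5 fell and 17 did not pass, with a median log2 change of 0.01. The insulin receptor gene Insr rose 1.67-fold (0.74 ± 0.17, adjusted p = 0.00365), and Sesn3, a FOXO target that limits oxidative stress, rose 1.31-fold (adjusted p = 0.00211). Pik3ip1, an inhibitor of PI3K and a FOXO target, fell 1.66-fold from 1.74 ± 0.0969 to 1.05 ± 0.0608 (SD, n = 3 each, limma adjusted p = 0.000197). Pik3r2, a regulatory subunit of PI3K, fell 1.38-fold (adjusted p = 0.00565). Sesn1, a FOXO target related to Sesn3, fell 1.23-fold (adjusted p = 0.0138). Other FOXO targets, among them Bcl2l11, Gadd45a and Cat, did not pass in the main comparison. The log2 change of Sesn3, 0.39, was 0.20 under quantile and 0.22 under cyclic loess normalization. Cat was called lower under both scalings (-0.36, limma adjusted p = 0.000681, and -0.31, 0.00194). Under each of them the list had 2 higher and 7 lower.

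The FOXP class, whose members act in brain, lung, heart and lymphocytes, was split. Foxp2, a gene of the nervous system and lung epithelium, read 0.665, 0.577 and 0.531 in wild type and 0.194, 0.272 and 0.371 in knockout. All knockout values lay below all wild-type values, a log2 change of -1.13 ± 0.29 (adjusted p = 0.00795), or 2.18-fold lower. These are dim signals, with knockout array 1 under the limit of 0.217, and on the scale of log2(value + 0.25) the change was -0.68. Without wild-type array 1 the change was -1.04 and missed the threshold (adjusted p = 0.0506). Foxp1, which also acts in motor neurons, read 19.1, 20.4 and 17.9 in wild type and 23.9, 17.0 and 17.4 in knockout. Knockout array 1 was the highest of the 6 arrays and the other knockout arrays were the lowest, and the change of 0.01 ± 0.12 did not pass (adjusted p = 0.972, and -0.15 with 0.0692 without knockout array 1). The sign of this small change also turned under quantile and cyclic loess normalization. Foxp3, the regulator of regulatory T cells, read 1.36, 1.39 and 1.31 in wild type and 1.76, 1.58 and 1.5 in knockout. Its genotypes did not overlap, but it did not pass (0.25 ± 0.10, adjusted p = 0.0735), except under cyclic loess normalization (adjusted p = 0.0411). Foxp4 was too dim to test.

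The FOXN class held the probe pairs that disagreed. Foxn3, a checkpoint gene that represses transcription, read 19.4, 16.1 and 16.3 in wild type and 29.0, 24.6 and 27.9 in knockout on probe 4976. The ranges were well separated, a log2 change of 0.66 ± 0.09 (adjusted p = 0.000167), or 1.58-fold higher. Its dimmer probe 3515 had a change of the opposite sign that did not pass, -0.32 ± 0.19 (adjusted p = 0.194), from 0.729 ± 0.0703 to 0.591 ± 0.117 (SD, n = 3 each). On Foxn2, a little-studied relative, the probes were called in opposite directions. Probe 4317 read 1.97, 1.98 and 1.94 in wild type and 1.31, 1.64 and 1.46 in knockout (-0.42 ± 0.10, adjusted p = 0.00676). Probe 5211 read 3.58, 3.49 and 3.22 in wild type and 4.19, 3.87 and 4.0 in knockout (0.23 ± 0.08, adjusted p = 0.0391). The genotypes did not overlap on either Foxn2 probe, so no single direction can be given for the gene. The decrease on probe 4317 was called in all 17 alternative settings. The increase on probe 5211 was lost when any 1 of the 3 wild-type arrays was left out (adjusted p = 0.0656, 0.0901 and 0.140), without knockout array 3 (0.0828) and with no trend in the variance prior (0.0647). Sequence and position of these probes are not given in the files used. Foxn1, of thymus and skin, read 0.533, 0.729 and 0.752 in wild type and 0.732, 0.402 and 0.350 in knockout. Its ranges overlapped through knockout array 1, and the change of -0.50 ± 0.27 did not pass (adjusted p = 0.165), while without that array it was -0.82 (adjusted p = 0.00798). Foxn4, of the retina and spinal cord, was too dim to test.

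**Figure D3:**
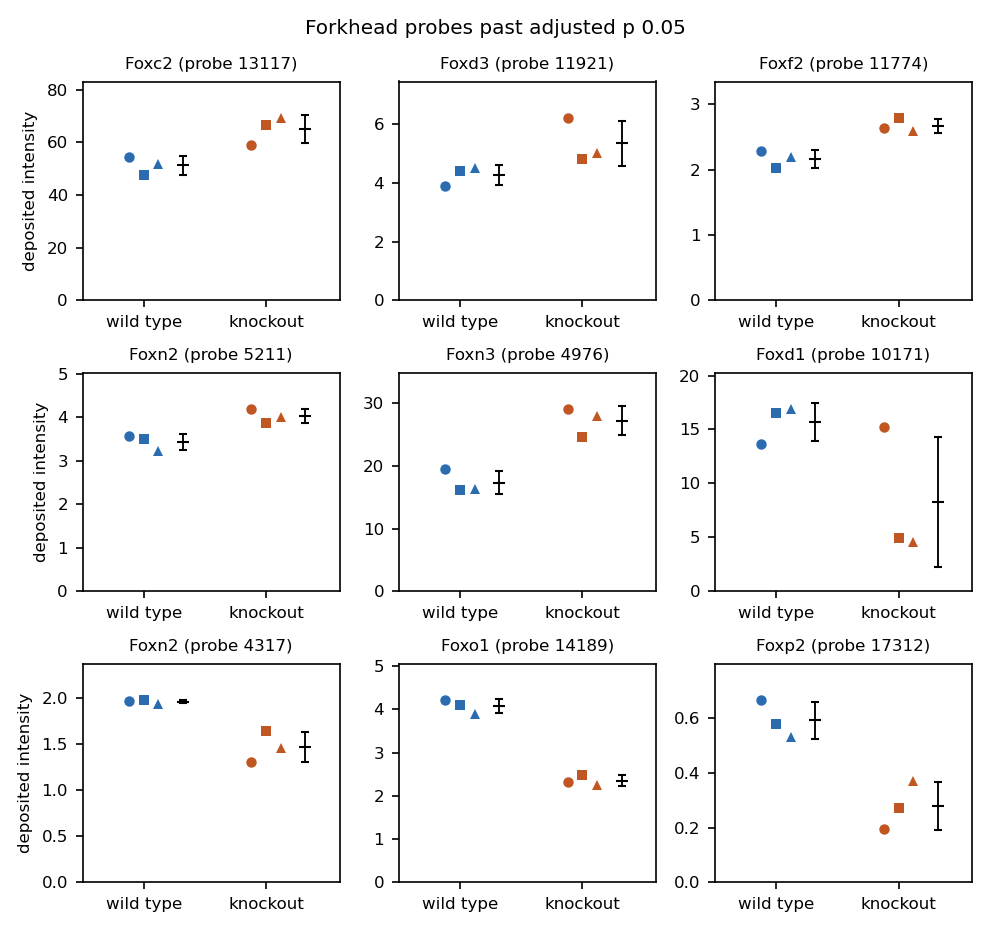
Deposited intensity (vertical axis from 0, own scale in each panel) of the 9 forkhead probes past adjusted p 0.05 in wild type (blue) and knockout (orange), with a marker per array (circle 1, square 2, triangle 3) and the mean ± SD in black. The first 5 panels rose and the last 4 fell, and the Foxn2 probes 5211 and 4317 differ in direction.

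Endodermal FOXA genes were dim or not called. Foxa1 read 2.98, 2.89 and 3.36 in wild type and 3.35, 3.04 and 3.26 in knockout, which overlapped (0.06 ± 0.09, adjusted p = 0.589). Foxa2, of endoderm, floor plate and notochord, read 0.156, 0.0831 and 0.116 in wild type and 0.307, 0.369 and 0.274 in knockout. All knockout arrays lay above the limit of 0.217 and all wild-type arrays under it, and the mean over the 6 arrays was under it too, so the probe was not tested in the main comparison. With no filter on dim probes it was called higher (1.46 ± 0.38, adjusted p = 0.0127), and against the limit the knockout signal was at least 1.45-fold higher. Foxa3, of gut and liver, was dim in both genotypes, at -0.0301 to 0.298. Neural tube and neuronal markers moved with Foxa2, from summed intensities of 18.2 to 18.7 in wild type to 71.5 to 74.7 in knockout over 10 markers, with 8 of 9 tested markers higher and none lower. Zic1 had the largest change of those markers and gave the largest part of the increase in the sum. It went from 1.51 ± 0.112 in wild type to 29.5 ± 1.59 in knockout (SD, n = 3 each). Nkx2-2, a gene of the ventral neural tube, read at most 0.10 in wild type and 0.306 to 0.818 in knockout. Olig2, also on the list, stayed under the limit of 0.217 on every array of both genotypes. Gut and liver markers summed to 15.3 to 16 and 18.8 to 20.6 over 8 markers, 2 of 7 tested ones higher and 2 lower. The part of either tissue in the Foxa2 signal was not tested. Of 12 tested endoderm and liver genes that act with FOXA proteins, 1 rose, 5 fell and 6 did not pass (median -0.25). Ttr, which encodes transthyretin and is a classic FOXA target, was the gene that rose, 6.4-fold, while Gata6, an endoderm and mesoderm regulator, fell 2.35-fold from 4.79 ± 0.189 to 2.05 ± 0.230 (SD, n = 3 each).

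Foxm1, Foxk2 and Foxj2 did not pass in the main comparison. Foxm1, the mitotic regulator, read 0.749, 0.682 and 0.70 in wild type and 0.616, 0.763 and 0.615 in knockout, with overlapping ranges (-0.10 ± 0.16, adjusted p = 0.640). Of 21 tested mitosis genes, 8 rose and 4 fell (median 0.12), but 6 were higher and 6 lower under both quantile and cyclic loess normalization. Mki67, the proliferation antigen, rose 1.64-fold and Tpx2, a spindle factor, 1.55-fold, whereas the kinase gene Plk1 and the phosphatase gene Cdc25c, both of mitotic entry, fell 2.07-fold and 1.84-fold. The log2 change of Mki67, 0.71, was 0.37 under quantile and 0.40 under cyclic loess normalization, and that of Tpx2, 0.63, was 0.40 under quantile normalization. Foxk2, which acts in metabolism and autophagy, read 4.69, 4.04 and 3.89 in wild type and 4.41, 5.52 and 5.12 in knockout. Knockout array 1 lay inside the wild-type range, and the change of 0.25 ± 0.10 did not pass (adjusted p = 0.0683), though it did without that array (0.34, adjusted p = 0.00321), without wild-type array 1 (0.33, adjusted p = 0.0424) and under quantile normalization (0.28, adjusted p = 0.0463). Foxj2 read 0.50, 0.615 and 0.601 in wild type and 0.421, 0.450 and 0.447 in knockout. Its genotypes did not overlap, yet it did not pass (-0.38 ± 0.20, adjusted p = 0.15), except with no trend in the variance prior (adjusted p = 0.0340).

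Among genes tied to other organs, Foxh1, the SMAD partner in Nodal signalling, read 0.938, 0.945 and 0.914 in wild type and 0.923, 0.807 and 0.652 in knockout (-0.25 ± 0.15, adjusted p = 0.218). Foxi1, of the inner ear and of acid-secreting kidney cells, read 3.13, 3.03 and 3.29 in wild type and 3.02, 2.76 and 2.55 in knockout. Every knockout value of Foxi1 lay below the wild-type range, but by little, and it did not pass (-0.18 ± 0.09, adjusted p = 0.120) unless knockout array 1 was left out (-0.25, adjusted p = 0.0219). Foxj1, the master regulator of motile cilia, was too dim to test, with no value above 0.234, and among 6 tested motile cilium genes 1 rose (Tekt1, 1.44-fold) and 1 fell (Ift88, 1.42-fold, median of the list 0.10). Foxe3, of the lens, stayed under the limit on all 6 arrays. Foxj3 and Foxq1 were also too dim, and Foxq1 separated the genotypes, since wild-type values ended at 0.191 and knockout values began at 0.197. In all, 13 probes of 12 genes were not tested, and their values on any array lay between -0.0371 and 0.581. The limit says that these signals were dim on this array, not that the genes were silent.

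Genes that work near these factors in mesoderm and crest moved in both directions. Of 18 tested genes of paraxial and intermediate mesoderm, the setting of FOXC and FOXD1, 7 rose, 1 fell and 10 did not pass (median 0.32), and under cyclic loess normalization 7 were higher and 3 lower. The gene that fell in the main comparison was Osr2, a zinc finger gene of the mesonephros, 5.22-fold, from 13.4 ± 0.426 to 2.57 ± 0.0730 (SD, n = 3 each, limma adjusted p = 1.59e-09), evenly over the knockout arrays and so unlike Foxd1. The somite genes Meox2 and Tcf15 rose 4.0-fold and 2.05-fold, and Pax9, of the sclerotome, was at least 2.51-fold higher against the limit. Over 10 somite and muscle markers the wild-type arrays summed to 25.9 to 26.7 and the knockout arrays to 43.8 to 46.4, with 7 of 9 tested ones higher and none lower, and their part in the Foxc2 value was not tested. Of 15 tested genes of hedgehog signalling and gut mesenchyme, the setting of Foxf2, 4 rose and 4 fell (median 0.14). Barx1, of stomach mesenchyme, rose 5.62-fold from 4.16 ± 0.232 to 23.4 ± 1.76 and Tlx1, of the spleen, 6.79-fold, and of the pathway's own genes Gli2, a transcription factor, rose 1.38-fold (adjusted p = 0.0197) while Gas1 and Smo fell 1.27-fold and 1.19-fold. Smo was not called under quantile (adjusted p = 0.0763) or cyclic loess normalization (0.0537).

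Of 14 tested genes on the neural crest list, the setting of FOXD3, 5 rose, 2 fell and 7 did not pass (median 0.24). The largest increases were those of Tubb3, 3.32-fold, and of Sox10, of crest and glia, 2.31-fold. Tubb3 and Isl1, which also rose, are counted among the neural tube and neuronal markers as well. Snai1 and Snai2 were the genes that fell, Snai1 not under quantile (adjusted p = 0.0851) or cyclic loess normalization (0.0771), and under quantile normalization the list had 5 higher and 1 lower. Of 15 tested endothelial genes, 1 rose and 5 fell (median -0.17), among them the adhesion gene Pecam1, 2.49-fold lower, and Tek, the angiopoietin receptor, 1.64-fold lower. The increase was that of Kdr, 1.19-fold, and it was not called under quantile or cyclic loess normalization, where the list had 0 higher and 7 lower. These medians, all of the main comparison, compare with 0.09 over all tested probes there, and several lists share genes.

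**Figure D4:**
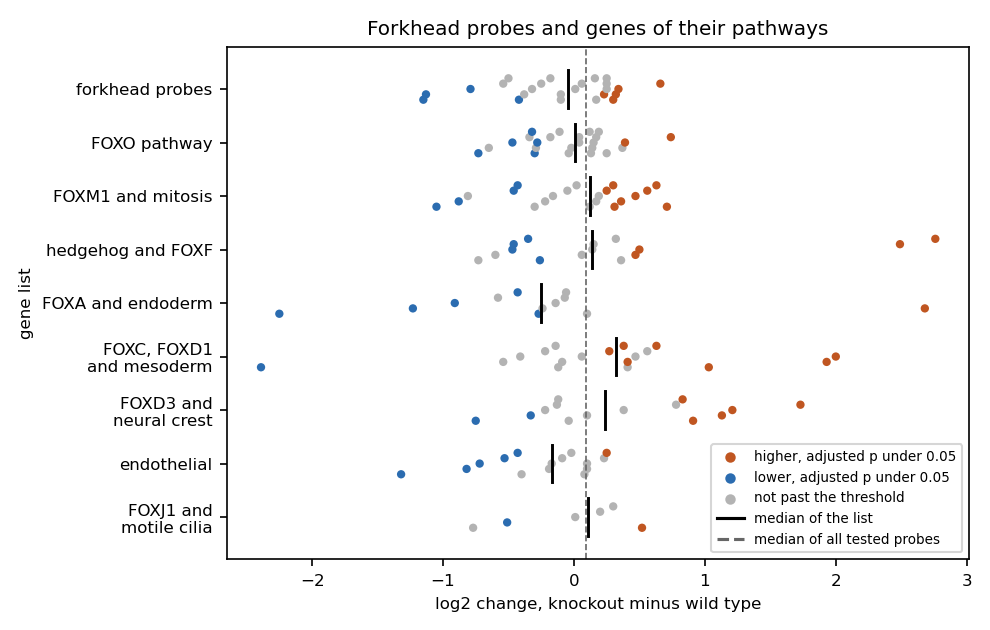
Log2 change, knockout minus wild type (horizontal axis), of the 24 tested forkhead probes and of the tested genes of 8 lists (vertical axis, 1 gene a point), coloured by direction where adjusted p was under 0.05, with list medians as black bars and the median of all tested probes (0.09) as a dashed line. The forkhead probes lie between -1.15 and 0.66, whereas Osr2 and Spink1 lie under -2 and Tlx1, Barx1 and Ttr above 2 on the log2 scale.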

How the data were processed

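Per the labels' protocols, ridge RNA was biotin-labelled for CodeLink Mouse 20k arrays. The authors deposited linear spot intensities, 1 column per array. How they were scaled, background-corrected and flagged is not given in the sources used here. Each array held 20077 to 20099 values, 153 to 246 of them at or below 0, and the number of arrays limits the precision.

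Values under the 5th percentile of positive values (0.0811) were raised to that floor before taking log2, with no further normalization. Probes with values on at least 2 arrays per genotype and a mean above the 25th percentile entered the model (limma 3.58.1, R 4.3.3, moderated test with a variance prior that follows intensity, two-sided, genotype only), with p-values adjusted over 15062 probes. The fit was also run on simulated arrays with independent noise and few changed probes. That setting is unlike these data, where many probes were called, so nothing is concluded from it. Means ± SD are of deposited intensities, and folds were back-calculated from the log2 change. Where all arrays of the lower genotype lay under the limit of 0.217, the fold is a lower bound against the limit.

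Gene names come from GEO's annotation of the platform (1 symbol for 15120 probes, several for 38, from which none was named, 5131 not listed), which can be old. All 34 forkhead genes matched RefSeq GRCm38.p6 by Entrez identifier. Another 9 RefSeq forkhead genes of the same naming pattern had no listed probe and were not analysed here. Values on every array are given for probes called at 1.5-fold or more, for the brightest tested member of each class and for some others. Each list gene was read from its brightest complete probe. From each list up to 4 called genes with the largest change could be named. Gas1, Smo, Gli2, Sesn1, Bcl2l11, Gadd45a, Cat, Th, Kdr, Snai1, Tek, Hand2, Nkx2-2, Zic1 and the erythroid genes were added after their values were seen. Olig2 was likewise added after its values were seen. Members and lists were chosen with earlier results of these data known. Lists were described by counts and medians, with no list test.

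Same-numbered arrays of the genotypes did not deviate together (correlations of deviations from the genotype means of 0.000489, -0.0208 and -0.00572 over 15019 probes), so the numbers were not used as pairs. Alternatives changed the normalization, floor, pseudocount, filter and variance prior, added the replicate number as a block, or left out each array in turn. For list genes the scalings and the omission of knockout array 1 were added after seeing the data.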

Additional observations from a re-analysis of the deposited data

How the results depend on the processing

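Of the called probes, 3 forkhead probes kept their call in all 17 alternative settings, Foxo1, Foxn3 (probe 4976) and Foxn2 (probe 4317). The 5 forkhead probes called higher became 3 with no trend in the variance prior, and 2 to 6 when single arrays were left out. The 4 called lower ranged from 3 to 6. Over the array 6221 calls ranged from 4800 to 7317 with an array left out. With the replicate number as a block (replicate block), 4 forkhead probes were called higher and 4 lower, and 6019 over the array. The block ended the call of Foxn2 probe 5211 (adjusted p = 0.0599) and no other forkhead call. The sign of Foxp1, never called, turned under quantile (-0.12) and cyclic loess normalization (-0.13), and its change ran from -0.15 to 0.09 with single arrays left out. Among probes above the median probe, Foxp2 was no longer tested, and the higher counts of the FOXO and hedgehog lists were 1 and 1, since fewer genes were tested. Under quantile normalization the lower count of the mesoderm list was 2, the lower count of the neural crest list 1 and the higher count of the endothelial list 0. Under cyclic loess normalization the mesoderm list had 3 lower and the endothelial list 0 higher. With no filter on dim probes the neural crest list had 1 lower and the motile cilium list 2 higher. The cause of the other differences was not tested. The table carries no detection flags, so signal over background cannot be judged for the dim probes.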
